A study of Mus musculus with 4 samples.

Results

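Ribosome biogenesis genes encode the proteins that make ribosomes in the nucleolus. RNA polymerase I transcribes the ribosomal RNA precursor, box C/D and H/ACA particles modify it, and assembly factors of the small and the large subunit cut, fold and export it. The pathway is active in growing cells and is a known target of the transcription factor Myc. In stratified epithelia such as that of the vagina the dividing cells lie mostly in the basal layer. A set of 41 of its genes, chosen by name, was followed here among 25071 gene symbols of a single-cell study of the mouse vaginal epithelium, and all 41 were present in each of the 4 libraries. By role, 10 belong to box C/D, H/ACA or nucleolar organiser proteins, 3 to RNA polymerase I, 11 to small subunit assembly and 17 to large subunit assembly.

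Vaginal epithelium of C57BL/6 mice was profiled with Drop-seq, a droplet method that tags the 3' end of each captured polyadenylated transcript with a cell barcode and a unique molecular identifier (UMI), so that molecules rather than reads are counted. There were 2 libraries from mice with ovaries, labelled WT, and 2 from mice whose ovaries had been removed by surgery, labelled OVX. Each library pooled 5 mice. Neither group carried a transgene or received a further agent per the labels, and no label gives an age or a time since surgery. Because the libraries of a group are described as duplicate runs of pooled tissue, p-values between groups reflect how far these libraries differ, and that may be technical variation alone.

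Libraries held 991112 to 5845107 UMIs and 1573 to 2979 cells after filtering, with medians of 1597 and 799 UMIs per cell in WT and 435 and 738 in OVX. The median mitochondrial share was 4.00% and 3.85% in WT and 8.97% and 9.69% in OVX, and the nuclear RNA Malat1 took 0.336% and 0.465% against 2.50% and 1.81% of UMIs. The summed basal keratinocyte markers stood at 42280 and 24950 CPM (UMIs per 1000000 UMIs of the library or cell sum) in WT and 7898 and 8014 in OVX, with none of the 7 at 0 in any library, so the labelled epithelium was present in all. Of other cell types, the 13 myeloid markers summed to 148 and 153 in WT and 983 and 616 in OVX, with none at 0, and the 7 fibroblast markers to 5.14 and 32.6 against 213 and 196, with 3 at 0 in WT library 1 and none at 0 elsewhere. Their part in the results was not tested. Between 2 and 15 barcodes were shared between any pair of libraries.

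Myc and its partner Max are known to bind the letters CACGTG, so the promoters of the set that hold this word are shown. RefSeq promoters (GRCm38.p6, 250 bases before to 50 after the start site) matched 35 of the 41 genes with 38 promoters. CACGTG, which reads the same on both strands, was found in 5 of the 38 (13.2%), against 7.15% of all 32851 promoters in the table and 10.2% of the 9981 promoters of genes tested here. A second word, CCGGAA, the core of sites known to bind ETS factors, was searched on both strands. It was in 17 of the 38 (44.7%), against 14.9% of all promoters and 29.7% of those of tested genes. The letters of the first word cannot overlap those of the second. A match describes the letters only. The 5 promoters with CACGTG follow, 5' to 3', with that word in capitals. They belong to the rRNA methyltransferase Nop2, the small subunit factors Wdr43, Tsr1 and Ltv1, and the large subunit factor Pes1.
Nop2, chr6:125131633-125131932, plus strand: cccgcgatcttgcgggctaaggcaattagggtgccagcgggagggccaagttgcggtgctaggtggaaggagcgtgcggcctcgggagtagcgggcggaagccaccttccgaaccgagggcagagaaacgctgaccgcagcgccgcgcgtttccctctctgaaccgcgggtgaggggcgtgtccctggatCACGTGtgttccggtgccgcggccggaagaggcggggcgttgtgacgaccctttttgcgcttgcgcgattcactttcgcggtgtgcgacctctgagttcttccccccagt
Wdr43, chr17:71615965-71616264, plus strand: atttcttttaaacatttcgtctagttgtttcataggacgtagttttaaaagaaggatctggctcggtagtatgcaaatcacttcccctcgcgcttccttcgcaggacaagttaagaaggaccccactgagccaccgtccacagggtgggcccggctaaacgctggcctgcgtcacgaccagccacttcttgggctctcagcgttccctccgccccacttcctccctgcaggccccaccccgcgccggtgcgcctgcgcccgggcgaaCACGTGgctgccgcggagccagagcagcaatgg
Tsr1, chr11:74897830-74898129, plus strand: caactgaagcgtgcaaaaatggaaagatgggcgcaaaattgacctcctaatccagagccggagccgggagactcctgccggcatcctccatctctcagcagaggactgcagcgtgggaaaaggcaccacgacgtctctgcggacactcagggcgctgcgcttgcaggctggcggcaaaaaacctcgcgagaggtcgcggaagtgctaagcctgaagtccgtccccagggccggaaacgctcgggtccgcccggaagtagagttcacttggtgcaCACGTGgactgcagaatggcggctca
Ltv1, chr10:13193088-13193387, minus strand: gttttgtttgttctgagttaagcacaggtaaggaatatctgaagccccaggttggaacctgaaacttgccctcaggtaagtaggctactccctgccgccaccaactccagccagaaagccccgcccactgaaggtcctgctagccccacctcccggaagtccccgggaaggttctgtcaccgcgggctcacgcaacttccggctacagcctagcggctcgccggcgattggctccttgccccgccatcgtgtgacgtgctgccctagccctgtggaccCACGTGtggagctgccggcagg
Pes1, chr11:3963725-3964024, plus strand: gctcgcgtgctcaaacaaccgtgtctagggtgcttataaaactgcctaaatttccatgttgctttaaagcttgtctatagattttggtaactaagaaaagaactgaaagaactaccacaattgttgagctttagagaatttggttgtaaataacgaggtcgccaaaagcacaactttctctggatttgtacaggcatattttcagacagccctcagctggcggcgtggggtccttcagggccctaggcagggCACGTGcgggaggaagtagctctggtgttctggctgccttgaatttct

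In Nop2 the word begins 60 bases before the start site, at position -60, and in the other 4 it lies just after it, at positions 2 (Pes1), 17 (Wdr43), 24 (Tsr1) and 28 (Ltv1), counted with the start site as 0. The 5 genes did not share a pattern across the libraries. Nop2 was at 38.8 and 37.3 CPM in WT and 30.0 and 23.2 in OVX, and Ltv1 was at 94.7 and 91.7 against 104 and 94.1. Tsr1 differed more between the WT libraries, at 253 and 82.4, than between the groups, with 105 and 193 in OVX. Wdr43 was higher in both OVX libraries, at 375 and 332 against 234 and 248, and Pes1 overlapped, at 116 and 125 against 96.4 and 159. None passed the test between groups (edgeR quasi-likelihood test, adjusted p of 0.395 for Nop2, 0.599 for Wdr43, 0.834 for Tsr1, 0.956 for Ltv1 and 0.971 for Pes1).

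The first comparison asks whether the set differs after removal of the ovaries, which make most of the oestrogen. Across all kept cells no member passed the test in either direction. In such sums a shift in the mix of cells and a change per cell cannot be told apart. All 41 were tested. None was called lower, against 2.52% of the 11495 genes tested, and none higher, against 2.58% (edgeR, Benjamini-Hochberg adjustment over all genes, threshold 0.05). Adjusted p ran from 0.131 to 0.986. At an unadjusted p under 0.05 there were 4 members (9.76%), against 19.99% of all genes tested, and DESeq2 and limma-voom likewise called 0. The median log2 fold change of the members was -0.24, beside -0.03 over all genes. The standard errors, 0.37 to 0.65 with a median of 0.42 on the log2 scale, are large enough that changes of the size seen for most members could not be told from no change with 2 libraries per group.

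The box C/D and H/ACA proteins and the nucleolar organisers hold the genes with the most UMIs in the set. Npm1 (nucleophosmin, a nucleolar chaperone, chromosome 11, 33152287 to 33163206) was at 1059 and 1502 CPM in WT and at 1083 and 1136 in OVX. WT library 2 stood above the other libraries, which lay close together. Ncl (nucleolin, chromosome 1, 86344719 to 86359400) was at 5069 and 1537 in WT and at 3093 and 5372 in OVX. Its WT values spanned nearly the whole range, with both OVX values near or between them, and its fitted log2 change was 0.23 ± 0.63 (SE; edgeR adjusted p = 0.879). Nolc1, which shuttles between nucleolus and cytoplasm and binds both classes of particle (chromosome 19, 46075863 to 46085530), was at 484 and 204 against 379 and 520.

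Of the box C/D core, the methyltransferase Fbl was detected at 6.17 and 20.2 CPM in WT and 12.5 and 14.1 in OVX. Its scaffold partner Nop56 was at 172 and 231 against 310 and 261, so both OVX libraries lay above both WT libraries. Nop58, the second scaffold protein, was at 858 and 475 against 658 and 1037. For Fbl and Nop56, 74.7% and 80.0% of the words of 50 bases in the last 500 bases of the transcript occur in other annotated genes, so reads from them could be lost or split and their levels are uncertain. The same holds to a lesser degree for Ddx18 (49.2%), Wdr12 (42.1%), Polr1b (26.6%), Mrto4 (15.7%) and Nip7 (13.3%). Ncl, Nop56, Nop58, Dkc1, Wdr43, Tsr1, Rrp1, Gnl3 and Ppan overlap small RNA genes on their own strand, which the deposited counts may or may not separate.

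Of the H/ACA core, which guides pseudouridylation, the pseudouridine synthase Dkc1 was at 201 and 202 CPM in WT and 295 and 408 in OVX, with no overlap between the groups (log2 change 0.68 ± 0.41, SE; edgeR adjusted p = 0.404). Its partners lay lower in OVX or overlapped. Nhp2, an RNA-binding subunit (chromosome 11, 51619735 to 51623714), was at 255 and 360 against 159 and 122. Gar1 was at 120 and 153 against 115 and 99.6. Both OVX libraries lay below both WT libraries for Nhp2 and for Gar1, while the smallest subunit, Nop10, overlapped at 368 and 608 against 493 and 343.

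The fitted change of Nhp2, -1.28 ± 0.41 (SE), was the largest in size in the set, and its adjusted p was 0.131 (edgeR). Nhp2 and the next 3 genes are singled out because they were the 4 with an unadjusted p under 0.05, a choice made after their values were seen. Polr1c (chromosome 17, 46243920 to 46248054), a subunit that RNA polymerases I and III share, was at 95.5 and 77.7 CPM in WT and 46.3 and 42.8 in OVX (log2 change -1.10 ± 0.38, edgeR adjusted p = 0.163). Polr1d, its partner in both enzymes (chromosome 5, 147077050 to 147111597), was at 351 and 336 against 197 and 205 (-0.91 ± 0.38, edgeR adjusted p = 0.240). In both genes the libraries of a group lay close together and the groups did not overlap. Bysl, an assembly factor of the small subunit (chromosome 17, 47599331 to 47611492), was at 19.6 and 20.7 against 8.76 and 11.0, from 7 and 18 UMIs in the OVX libraries (-1.13 ± 0.46, edgeR adjusted p = 0.225). On the other strand Bysl overlaps Ccnd3, Nhp2 overlaps Rmnd5b and Polr1d overlaps Rps10-ps4. The remaining polymerase subunit, Polr1b, rested on 13 to 38 UMIs per library.

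Leaving out a WT library moved the fitted changes. Without WT library 1, the log2 change was -1.47 for Nhp2 and 1.38 for Ncl. Without WT library 2, it was -1.30 for Polr1c. These 3 genes were chosen after the fits were seen. In such fits the lone WT library is assumed to vary like the OVX libraries, so no call is read from them.

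Among the 11 small subunit factors, which act on the small subunit part of the precursor, levels ran from 8.76 to 375 CPM and fitted log2 changes from -1.13 to 0.68. Both OVX libraries lay above both WT libraries in 3, below in 2, and overlapped in 6. Nop14 was the highest of these changes, at 163 and 87.0 in WT and 169 and 271 in OVX. Nop14, and Gnl3 and Ddx21 below, are named for their values, after these were seen. Of the 17 large subunit factors, with levels from 7.33 to 893 and changes from -0.94 to 0.51, 2 lay above, 3 below and 12 overlapped. The GTPase Gnl3 (nucleostemin) was among those above, at 322 and 260 against 427 and 480. The RNA helicase Ddx21 showed the widest WT spread there, at 893 and 262, with 402 and 666 in OVX. Over the whole set 7 members lay above, against 29.1% of all genes tested, 9 lay below, against 21.2%, and 25 overlapped.

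**Figure D1:**
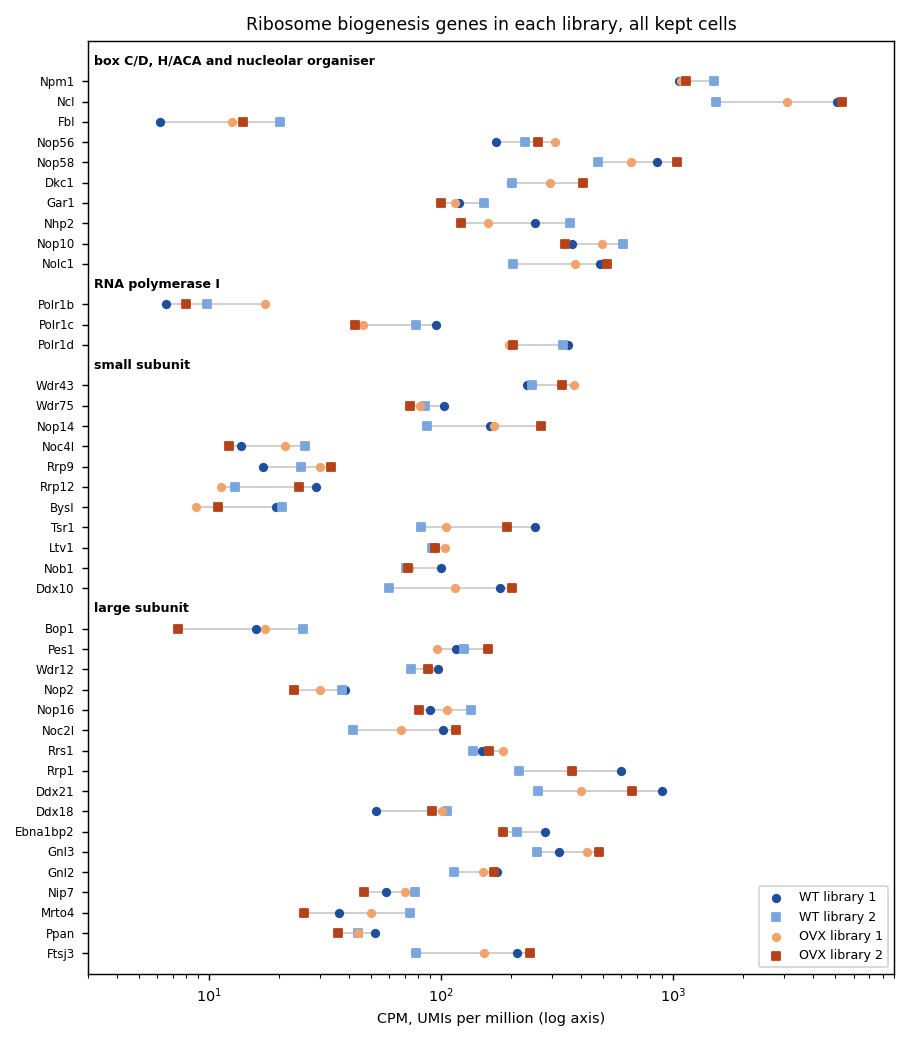
Level of each of the 41 genes in the 4 libraries over all kept cells, in CPM on a log axis, grouped by role; each point is 1 library and the grey line spans the 4. In Ncl, Tsr1, Ddx10 and Ddx21 the WT libraries lie far apart with an OVX library between them, whereas in Polr1c and Polr1d the groups are apart (95.5 and 77.7 against 46.3 and 42.8 for Polr1c).

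In summed level the libraries of one group differed from each other more than the group means did. Summed over the 41 genes, the level was 13540 and 8545 CPM in WT (mean 11040 ± 3532, SD, n = 2) and 10490 and 13830 in OVX (12160 ± 2362, n = 2). WT library 1 and OVX library 2 were the high ones. Ncl made up 37.4% and 17.98% of the set's UMIs in WT and 29.5% and 38.8% in OVX. Without it the sums were 8474 and 7009 in WT and 7401 and 8462 in OVX, and WT library 1 and OVX library 2 were again the higher library of their group. On the scale of CPM plus 1, more than 2-fold differences between the WT libraries occurred in 10 members and between the OVX libraries in 3, while the fitted change between groups passed 2-fold in 3. In 29 members at least one within-group difference was larger than the fitted change between groups. Such counts were not made over all genes tested, so they do not set the members apart from other genes.

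These within-group differences ran in parallel. Across the 41 genes the log2 ratio of WT library 1 over WT library 2 and that of OVX library 2 over OVX library 1 had a Spearman rho of 0.73 and a Pearson r of 0.73. Across 9593 tested genes with an annotated transcript they were 0.52 and 0.50. These are descriptions over genes, which share the libraries and their depth, and the pairing of libraries was chosen after their values were seen. Genes high in both WT library 1 and OVX library 2 included Ncl, Tsr1, Ddx10, Ddx21, Noc2l, Ftsj3 and Rrp12, and genes low in both included Bop1, Mrto4 and Noc4l. The length of the longest annotated coding transcript, which need not be the one expressed, had a rho of 0.54 with the WT ratio and 0.46 with the OVX ratio across members, and 0.41 and 0.30 across all genes. Whether these properties contribute was not tested.

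**Figure D2:**
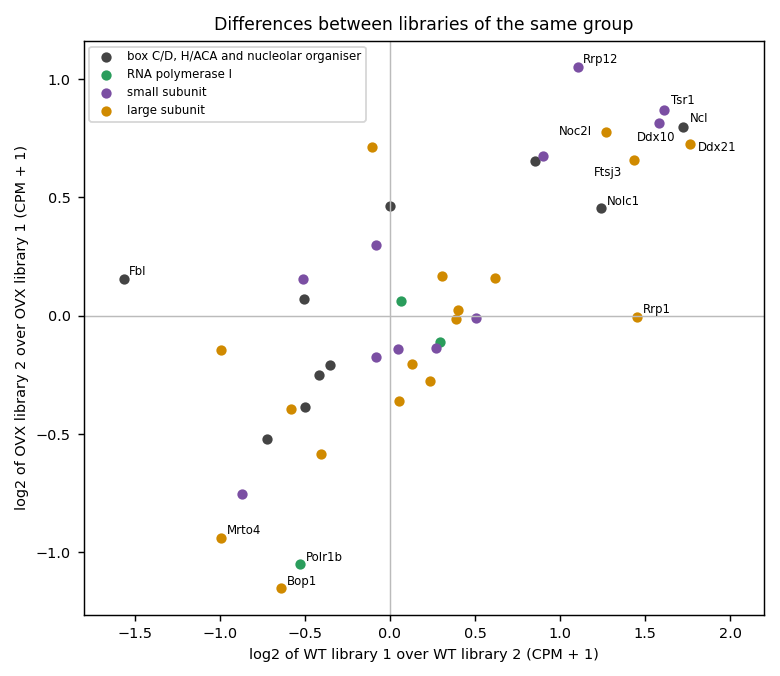
Log2 ratio of WT library 1 over WT library 2 (horizontal) against OVX library 2 over OVX library 1 (vertical), both of CPM plus 1, for each of the 41 genes, coloured by role. Most points run from lower left to upper right (Spearman rho 0.73), with Ncl, Tsr1, Ddx10 and Ddx21 at the upper right and Fbl and Rrp1 off the line.

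Ribosome biogenesis is known to follow growth and division, and the groups differed in dividing cells. Summed S phase markers were at 4260 and 3162 CPM in WT and 1712 and 2225 in OVX, and G2M markers at 9155 and 6524 against 1777 and 2477. Within each gate below no member was called between the groups, but the gates did not make the groups alike. G2M markers were at 9381 and 6844 CPM in WT against 2060 and 2505 in OVX in basal-gated cells, and at 15590 and 12310 against 6106 and 6489 in cycle-high cells. Their part in the result was not tested. Each cell was thinned at random to 400 UMIs, and 0, 43, 650 and 43 cells below that depth were left out of the gates, in the order WT library 1, WT library 2, OVX library 1 and OVX library 2. Basal-gated cells, which held at least 2 basal marker UMIs of the 400 and more of them than of suprabasal, luminal or myeloid markers, gave 0 of 41 lower (2.10% of all genes) and 0 higher (1.96%). That gate took 95.3% and 90.3% of WT cells and 74.5% and 73.8% of OVX cells, so it is not specific to the basal layer in WT.

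Cycle-low cells, with at most 1 UMI of the cycle markers, gave 0 of 40 lower (1.86%) and 0 higher (2.48%). Cycle-high cells, with at least 3, gave 0 of 38 lower (0.692%) and 0 higher (0.841%). Basal-gated cells that were also cycle-low gave 0 of 38 lower (1.60%) and 0 higher (1.62%). At an unadjusted p under 0.05 there were 2 members in basal-gated cells (18.02% of all genes), 3 in cycle-low (18.4%), 1 in cycle-high (12.8%) and 2 in basal-gated cycle-low cells (17.3%), and DESeq2 called 0 in each of these 4 comparisons. WT library 1 and OVX library 2 were the higher library of their group in these sums too. In cycle-low cells they were 12900 and 8374 in WT and 10100 and 13420 in OVX, and in cycle-high cells 14170 and 8736 against 11720 and 15370.

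The second comparison asks how the set varies with the cell cycle within a library. Cycle-high cells had slightly more of the set than cycle-low cells of the same library, by 1.10-fold and 1.04-fold in WT and 1.16-fold and 1.15-fold in OVX. Without Ncl the ratios were 1.055 and 1.028 in WT and 1.132 and 1.138 in OVX. With the library as a block, 5 of 40 tested members were higher (5.71% of all genes were) and 1 was lower (3.58%), and Polr1b was too low to test. Of the 5 that were higher, 4 are box C/D or nucleolar organiser genes. That role holds the genes with the most UMIs in the set, and smaller changes can pass in such genes. Standard errors of the members ran from 0.03 to 0.45 with a median of 0.12, so the count is not read as a trait of the role. At an unadjusted p under 0.05 there were 8 of 40 members, against 18.8% of all genes, and DESeq2 called none of the 6.

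Nop58 was at 993 CPM in cycle-high and 702.4 in cycle-low cells of WT library 1, 516 and 422 in WT library 2, 635 and 626 in OVX library 1 and 1335 and 929 in OVX library 2. It was higher in cycle-high cells of all 4 libraries, though barely in OVX library 1 (log2 change 0.40 ± 0.05, SE, edgeR adjusted p = 5.9e-13). Nolc1 was at 552 and 415, 243 and 164, 423 and 402, and 674 and 490 in the same order (0.37 ± 0.07, edgeR adjusted p = 1.5e-06). Ncl rose by less, 0.17 ± 0.03, in all 4 libraries (edgeR adjusted p = 4.5e-07). Nop56 (0.27 ± 0.09, adjusted p = 0.0314) rose in all 4 and Gnl3 (0.23 ± 0.07, adjusted p = 0.0166) in 3 of 4, WT library 2 being the exception. These p-values leave out the spread that sums of a library share.

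Polr1d fell. It was at 307 in cycle-high and 399 in cycle-low cells of WT library 1, 315 and 374 in WT library 2, 191 and 204 in OVX library 1 and 170 and 228 in OVX library 2, lower in cycle-high cells of all 4 (-0.39 ± 0.10, edgeR adjusted p = 0.0015). Ribosomal protein genes, the end product's own components, were mostly on the low side as well, with 18 of 80 called lower and 0 higher. Of the other 91 ribosome biogenesis genes tested 3 were called higher and 0 lower, and of 13 exosome genes, whose products trim the precursor's 3' ends, 4 higher and 0 lower.

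The calls depend on single libraries. Without WT library 1, 2 members were called higher and 0 lower, without WT library 2, 1 and 1, without OVX library 1, 4 and 1, and without OVX library 2, 1 and 0. The change with cycle state was also compared between groups as an interaction. No member passed in either direction, against 0.823% of all genes lower and 0.595% higher (edgeR), with 7 of 40 at an unadjusted p under 0.05, against 10.6% of all genes, and 0 called by DESeq2. With cycle-high set at 5 or more UMIs and cycle-low at 0, 2 members were called higher in the interaction. They were Ddx21 (0.78, edgeR adjusted p = 0.0115) and Gnl3 (0.86, adjusted p = 0.0277). The cycle-high sum of OVX library 1 then held 39 cells. The share of all genes called at that setting is not reported here, so these 2 calls are not read as a result about the set.

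**Figure D3:**
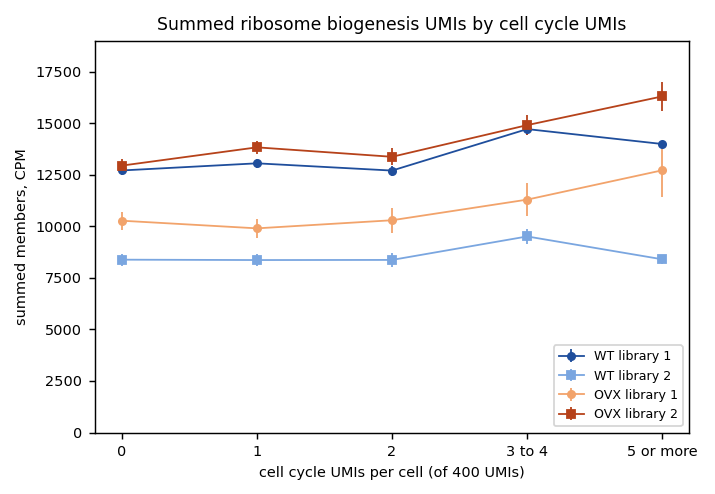
Summed level of the 41 genes in CPM (vertical) in cells grouped by the number of cell cycle UMIs among 400 (horizontal), 1 line per library; bars are 95% counting intervals and cover counting error only. The lines keep their order, with OVX library 2 highest at 12944 to 16301 and WT library 2 lowest at 8365 to 9510, and the WT lines peak at 3 to 4 cycle UMIs.

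Cycle-high cells mix phases, and the lines of WT turned down at the highest cycle counts, so cells with more S phase than G2M UMIs were set against those with more G2M than S phase UMIs. This comparison was added after the data were seen. S-phase cells numbered 495, 261, 75 and 196 and G2M-phase cells 912, 559, 58 and 172 in the order above. The set's summed level was 15460 against 13450 in WT library 1, 10080 against 8117 in WT library 2, 13280 against 9967 in OVX library 1 and 16800 against 14040 in OVX library 2. S-phase cells were the higher in every library, by 1.15-fold to 1.33-fold.

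Of 34 members tested, 6 were called higher in S-phase cells, against 1.27% of all genes, and 0 lower, against 2.64%. The median log2 change was 0.26, beside 0.01 over all genes. Nolc1 led, at 716 in S-phase and 476 in G2M-phase cells of WT library 1, 329 and 202 in WT library 2, 631 and 256 in OVX library 1 and 863 and 478 in OVX library 2, higher in all 4 (0.76 ± 0.11, SE, edgeR adjusted p = 1.9e-08). It was the only member that DESeq2 also called, and the only one called without WT library 1, without WT library 2 or without OVX library 2. Gnl3 (0.41 ± 0.11, edgeR adjusted p = 0.0126), Nop58 (0.28 ± 0.08, 0.0336), Npm1 (0.26 ± 0.08, 0.0192) and Ncl (0.19 ± 0.05, 0.00907) were higher in all 4 libraries, and Ddx21 (0.32 ± 0.10, 0.0433) in 3. Ribosomal protein genes had 4 of 74 called higher and 0 lower, and the other biogenesis genes 2 of 72 and 0.

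The third comparison asks whether the set differs between layers of the epithelium. In WT, suprabasal-gated cells (107 and 128 cells) were set against basal-gated cells of the same libraries. The set's summed level hardly differed, at 13550 against 13560 in WT library 1 and 8464 against 8563 in WT library 2. The gates also differed in cycling, with 24 of 33 S phase and 34 of 44 G2M markers called lower in suprabasal-gated cells (edgeR). Suprabasal-gated cells still held medians of 7 and 4 basal marker UMIs of the 400. The part of either in the result was not tested. Of 35 members tested, 2 were called higher in suprabasal-gated cells (4.24% of all genes) and 0 lower (5.32%). Both belong to the H/ACA core, of which Dkc1 and Gar1 were not called. At an unadjusted p under 0.05 there were 3 of 35 members (8.57%), against 18.9% of all genes (edgeR). The 2 calls are therefore not read as a trait of the set or of that core. Nop10 was at 540 against 361 in WT library 1 and 655 against 605 in WT library 2 (log2 change 0.43 ± 0.13, SE, edgeR adjusted p = 0.0170). Nhp2 was at 384 against 251 and at 393 against 356 (0.47 ± 0.16, edgeR adjusted p = 0.0385). In both genes the difference was larger in WT library 1 than in WT library 2.

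DESeq2 called neither. With a library left out, Nop10 was called without OVX library 2, which shares the fit, and no member without WT library 1, WT library 2 or OVX library 1. Ribosomal protein genes were called higher in 7 of 78 and lower in 0. Suprabasal-gated OVX cells, 4 and 17, were too few for a sum.

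In OVX, luminal-gated cells (50 and 68 cells, 33978 and 62975 UMIs) had less of the set than basal-gated cells. The summed level was 6593 against 10810 in OVX library 1 and 8511 against 14470 in OVX library 2, ratios of 0.610 and 0.588. Without Ncl these ratios were 0.679 and 0.616. The luminal gate took cells with at least 2 UMIs of simple epithelial and mucosal markers such as Krt8 and Krt18, and more of them than of other layers. Of 35 members tested, 8 were called lower (2.96% of all genes were) and 0 higher (2.35%), and 33 had a negative log2 change, as had 4129 of all 6861 genes tested. The median was -0.84, beside -0.20 over all genes. Of the cycle markers, 39 of 44 G2M and 30 of 33 S phase genes had a negative log2 change. Of these lists 4 and 0 genes were called lower and 1 and 1 higher (edgeR). The median was 1 cycle UMI of the 400 per cell in both gates of both OVX libraries. The part of cycling in the result was not tested.

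Npm1 was at 353 CPM in luminal-gated and 1134 in basal-gated cells of OVX library 1, and at 476 and 1232 in OVX library 2 (log2 change -1.66 ± 0.21, SE, edgeR adjusted p = 2.1e-13). Ncl was at 1442 and 3226, and at 3065 and 5626 (-1.14 ± 0.12, edgeR adjusted p = 1.4e-19). Nop58 was at 177 and 689, and at 699 and 1086 (-1.08 ± 0.21, edgeR adjusted p = 1.0e-05). In these 3 genes the luminal-gated level was lower in both libraries, from 12 and 30 UMIs of Npm1, 49 and 193 of Ncl and 6 and 44 of Nop58. They were the ones that DESeq2 called too, and the ones called without OVX library 2.

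The other 5 rested on fewer molecules. Nolc1 was at 206 and 416, and at 302 and 558 (-1.11 ± 0.27, edgeR adjusted p = 0.0020), from 7 and 19 luminal UMIs. Nop56 (-1.34 ± 0.38, adjusted p = 0.0101) had 6 and 7 luminal UMIs, and Gnl3 (-0.87 ± 0.27, adjusted p = 0.0277) had 12 and 17. Of Rrs1, a large subunit assembly factor that helps recruit the 5S particle, 4 UMIs were seen in luminal-gated and 295 in basal-gated cells of both OVX libraries together, a ratio of 0.229 with a 95% exact counting interval of 0.0619 to 0.592 (edgeR adjusted p = 0.0031). Gnl2, a GTPase of the large subunit, had 5 and 275, a ratio of 0.307 with an interval of 0.0989 to 0.725 (edgeR adjusted p = 0.0189). The intervals cover counting error only. Without OVX library 1, 5 members were called lower (edgeR): Npm1, Ncl, Nop58, Nolc1 and Noc2l, the last with 0 luminal UMIs in OVX library 2. Without OVX library 2, the 3 called were Npm1, Ncl and Nop58.

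**Figure D4:**
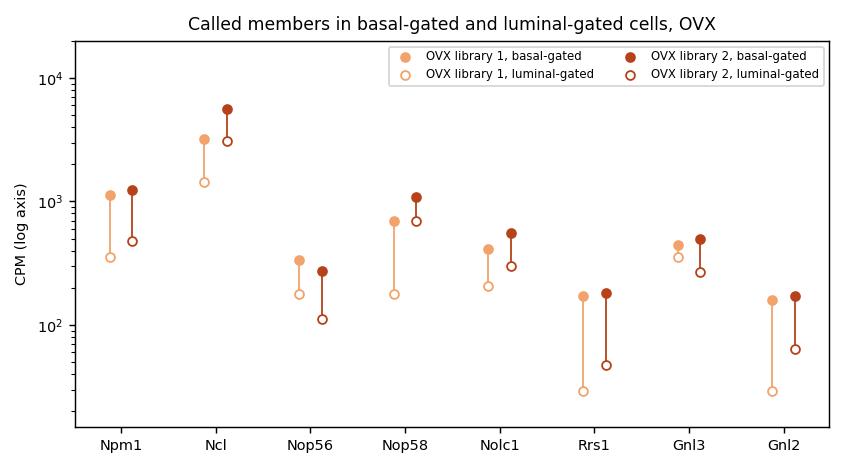
Levels of the 8 called genes in basal-gated (filled) and luminal-gated (open) cells of each OVX library, in CPM on a log axis; each point is a sum over the gated cells of 1 library. Every open point lies below its filled partner, for example Npm1 at 353 against 1134 and 476 against 1232.

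Ribosomal protein genes moved with the set here. Of 78 tested 43 were called lower in luminal-gated cells and 0 higher, and they took 6.51% and 7.58% of UMIs there against 10.2% and 11.5% in basal-gated cells. Of the other ribosome biogenesis genes 5 of 82 were called lower and 0 higher, and of the exosome genes 0 of 13 in either direction. Median UMIs per cell were 568 and 858 in luminal-gated and 580 and 750 in basal-gated cells. The mitochondrial share was 8.86% and 10.5% against 8.72% and 9.56%. Malat1 took 3.53% and 2.55% against 2.32% and 1.70%, and its part in the result was not tested. A gate at 4 luminal UMIs left 12 and 17 cells, too few for a sum.

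**Figure D5:**
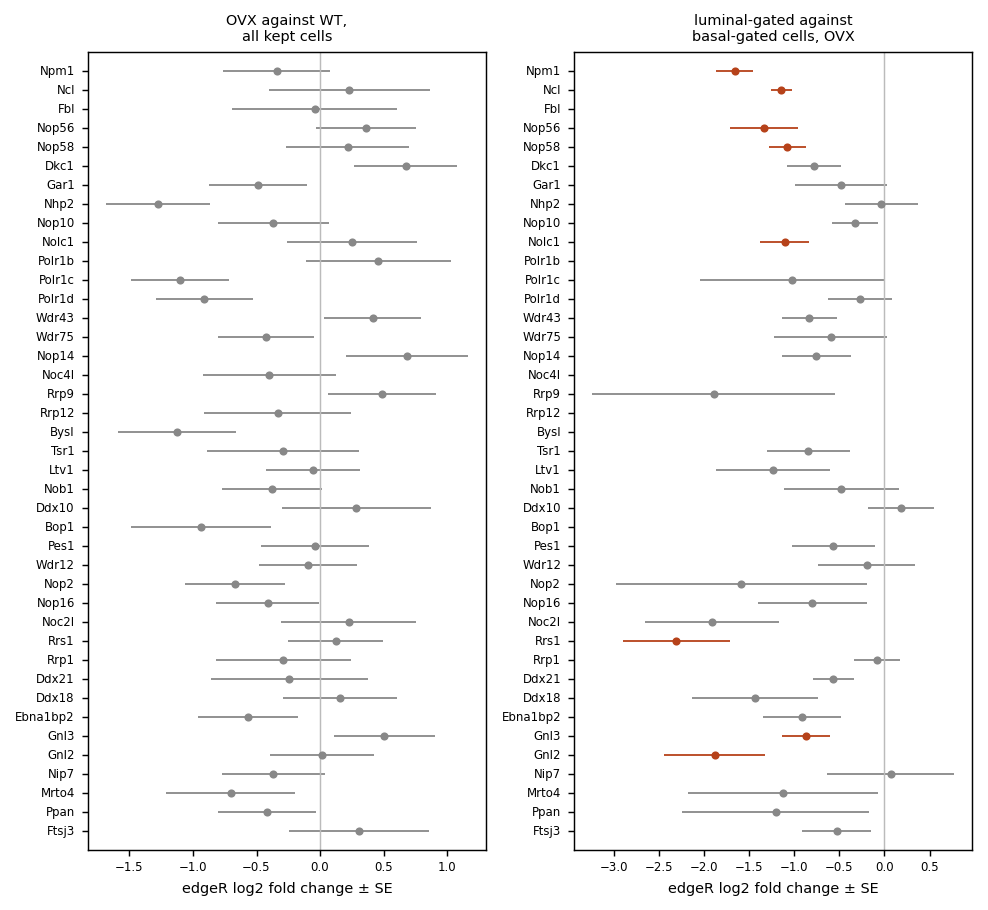
Fitted log2 fold change with its standard error for each of the 41 genes, OVX against WT in all kept cells (left) and luminal-gated against basal-gated OVX cells (right); orange marks an adjusted p under 0.05 and rows without a point were too low to test. On the left every point is grey, and on the right 33 of 35 points lie below 0 and 8 are orange.

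Related gene lists were read off the same comparison between groups. None of 94 other ribosome biogenesis genes, 13 exosome genes or 81 cytosolic ribosomal protein genes passed in either direction in all kept cells, with 6, 2 and 1 at an unadjusted p under 0.05 (edgeR). In the Myc network 1 of 10 was called lower and 0 higher. That gene was Mxd3, a Myc antagonist known for its expression in S phase, at 17.2 and 28.5 CPM in WT and 1.25 and 0.611 in OVX, 1 UMI in each OVX library (edgeR adjusted p = 0.0133). Myc itself was at 72.2 and 135 in WT and 178 and 94.7 in OVX, and overlapped. WT library 2 and OVX library 1, which were low in the set's summed level, were the high ones in Myc.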

How the data were processed

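Drop-seq libraries of vaginal epithelium from WT and OVX mice, 2 per group, were analysed from the deposited matrices of raw UMI counts per gene and barcode, which the authors did not normalise. The submitters' processing notes name mm10 and Seurat 2; no source used here gives the aligner, annotation or strand setting. The members, gene lists and gates were chosen with earlier results of these data known.

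Barcodes under 200 genes or over 20% mitochondrial UMIs were dropped. No doublet caller was run, so doublets remain. For gating only, cells were thinned to 400 UMIs with fixed seeds. Basal, suprabasal and luminal gates needed at least 2 marker UMIs and more than of each other layer or of myeloid markers; cycle-high was at least 3 and cycle-low at most 1 UMI of S and G2M markers. The number of cells near a gate was counted: 14.2% to 18.8% of cells held 2 cycle UMIs and entered neither state. Full counts of gated cells were summed per library. Layer sums under 50 cells were left out. With cycle-high set at 5 or more UMIs, the OVX library 1 sum of 39 cells was kept.

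Sums were tested with edgeR 4.0.16 (R 4.3.3; TMM, filterByExpr, quasi-likelihood F-test, Benjamini-Hochberg over all genes, threshold 0.05). Comparisons between groups had no covariate; comparisons within libraries had the library as a block. There were 10 comparisons, 1 of them added after the data were seen. Standard errors are the log2 change divided by the root of F. DESeq2 1.42.0, limma-voom (limma 3.58.1), no low-count filter, library size alone, other gates and leaving out each library were tried. Genes named with full values were the 10 box C/D, H/ACA and organiser members and every member past the threshold between groups in all kept cells, of which there were 0; others are said to be chosen afterwards. Of context lists, up to 3 called genes per direction were to be named in the comparison between groups. Positions are from GENCODE vM21 (GRCm38), in which all 41 symbols matched; promoters are from RefSeq. Total UMIs per library set the precision.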

Additional observations from a re-analysis of the deposited data

Results flagged for a closer look

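In 4 genes the 2 WT libraries went one way and the 2 OVX libraries the other when S-phase cells were compared with G2M-phase cells. This difference between the groups was not tested. How many of all genes show such a pattern was not counted, so it is not read as a trait of the set. Values are mean log2 ratios of CPM over the 2 libraries of a group. Ltv1, a small subunit factor, was at -0.0662 in WT and 0.683 in OVX. The helicase Ddx10 was at 0.29 in WT and -0.418 in OVX. Wdr12, a partner of Pes1 and Bop1 in the large subunit, was at 0.174 and -0.211, and Ppan, a large subunit factor, at 0.233 and -1.05. The values of these 4 genes rest on 2 to 6 UMIs per sum in OVX library 1 and on 6 to 42 in OVX library 2. Ddx10 was at -0.789 in OVX library 1, from 3 and 4 UMIs, and at -0.0479 in OVX library 2.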

How the results depend on the processing

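With 2 libraries per group and 58 cells in the smallest phase sum and 50 in the smallest luminal sum, small changes and genes of few UMIs could not be resolved. In all kept cells DESeq2, no low-count filter, library size alone, limma-voom and all deposited barcodes called 0 members in either direction, as did the replicate block, the fit that pairs libraries by number. With libraries taken by number, the differences within groups correlated at -0.568 over 11495 genes, and no label gives a batch or run order. The replicate block called 517 genes against 587. A crossed replicate block, chosen after seeing the data and pairing WT library 1 with OVX library 2, called 3489 genes, with 4 members lower and 1 higher. All genes called numbered 1356 without a low-count filter and 308 to 1884 when a library was left out. When a library was left out, members called lower or higher between groups ranged from 0 to 1 each in all kept, basal-gated and cycle-high or cycle-low cells (lower: 0 to 0 in the last 2), and in basal-gated cycle-low cells from 0 to 1 lower and 0 to 2 higher. In the cycle comparison the 5 higher became 0 with DESeq2, 3 without a filter, 3 with the stricter cycle gate, 1 with G2M-phase cells alone and 1 to 4 when a library was left out; the 1 lower became 0 with DESeq2 and with S-phase cells alone and 0 to 1 when a library was left out. Nolc1 reversed to -0.0422 (edgeR adjusted p = 0.907) with G2M-phase cells alone. The interaction had 2 higher with the stricter cycle gate. In S-phase against G2M-phase cells the 6 higher became 1 with DESeq2, 1 without a filter and 1 to 6 without a library. In suprabasal-gated cells the 2 higher became 0 with DESeq2, 0 without a filter, 6 with looser layer gates chosen after seeing the data and 0 to 1 without a library; under the looser gates Gnl3 reversed to 0.27 (edgeR adjusted p = 0.0289) and Ppan to 0.66 (edgeR adjusted p = 0.0307). In luminal-gated cells the 8 lower became 3 with DESeq2 and 3 to 8 without a library. For each change the cause was not tested.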
